A study of Rattus norvegicus with 6 samples.

Results

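The 3 sham libraries of the rat arcuate nucleus (ARC) describe the miRNA pool of this hypothalamic region in rats without nerve ligation. They are 3 of the 6 libraries of the series and were taken by their labelled treatment, with no contrast to the other 3, which came from rats with chronic constriction injury of the infraorbital nerve (CCI-ION) and were not used here. The rats were Sprague-Dawley, 8 to 10 weeks old and, where not specified otherwise, male. In sham rats the infraorbital nerve was exposed on one side and not ligated, and the ARC was taken on Day 14. Each library lists the same 562 mature rat miRNAs, and all 562 were kept as members. The sources used here give the number of rats per group but not how they were divided over the 3 libraries, so n counts libraries, and p-values measure the spread between these libraries, which may be technical.

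A mature miRNA is cut from one arm of a hairpin precursor and guides Argonaute proteins to messenger RNAs, which are then repressed. Bases 2 to 8 from its 5′ end, the seed, do most of the target pairing, so miRNAs with the same seed are grouped as a family. A hairpin can release a 5p and a 3p strand, and usually one strand is kept while its partner is degraded. The ARC lies at the base of the hypothalamus beside the third ventricle and the median eminence and holds neuroendocrine neurons that make proopiomelanocortin and other peptides. In the brain, miR-9, miR-124 and miR-128 are known as neuronal miRNAs, and miR-7 is known for its high level in neuroendocrine cells.

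The mature sequences of the miRNAs with most reads are shown first, because the family shares below rest on them. They come from RefSeq (GRCr8), are written 5′ to 3′, and carry the seed in capitals.
miR-7a-5p: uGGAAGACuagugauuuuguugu
miR-7b: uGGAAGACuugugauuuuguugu
miR-9a-5p: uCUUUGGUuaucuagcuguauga
miR-127-3p: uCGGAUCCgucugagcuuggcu
miR-125b-5p: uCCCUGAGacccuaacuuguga
miR-125a-5p: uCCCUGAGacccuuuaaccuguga
miR-128-3p: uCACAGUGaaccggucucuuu
miR-26a-5p: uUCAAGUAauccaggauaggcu
miR-30c-5p: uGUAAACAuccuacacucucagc
miR-129-5p: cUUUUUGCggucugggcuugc
miR-100-5p: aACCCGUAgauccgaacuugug
miR-99b-5p: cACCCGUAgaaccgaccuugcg
miR-181a-5p: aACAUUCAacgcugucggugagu
miR-218a-5p: uUGUGCUUgaucuaaccaugu
miR-434-3p: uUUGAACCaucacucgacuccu
The miR-7, miR-125 and miR-100 lines show why members are grouped, since their capitals are identical while the remaining bases differ.

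The 9 listed members of the let-7 family are shown together because they differ in few bases outside the shared seed.
let-7f-5p: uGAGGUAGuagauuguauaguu
let-7g-5p: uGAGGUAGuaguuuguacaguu
let-7c-5p: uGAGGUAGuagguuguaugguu
let-7i-5p: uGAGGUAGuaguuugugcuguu
let-7a-5p: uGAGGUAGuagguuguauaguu
let-7e-5p: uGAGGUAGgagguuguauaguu
let-7d-5p: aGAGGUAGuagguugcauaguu
let-7b-5p: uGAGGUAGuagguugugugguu
miR-98-5p: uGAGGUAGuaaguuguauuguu
Counted from 1 at the 5′ end, let-7a-5p differs from let-7f-5p only by A12G, and let-7g-5p differs by A12U and U18C. The largest difference from let-7f-5p was 4 bases, in let-7i-5p (A12U, A17G, U18C and A19U). In the same way miR-7b differs from miR-7a-5p only by A10U. How the authors assigned reads that fit several of these miRNAs is not given in the sources used here, so the split between such close members is uncertain. The sum over a family is free of that split only if each read was counted under 1 name, which is not stated, and 3 pairs of listed miRNAs, among them let-7a-1-3p and let-7c-2-3p, carry identical values in all 3 libraries.

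The values the authors deposited are normalized counts, in which the reads of a library were scaled by 1 factor for that library. Every value was a whole multiple of a step that is fixed within a library, within 0.01 of a step, and the smallest value above 0 was worth 5 steps, each taken as 1 read. The libraries then hold 11115049, 13611671 and 14313839 reads in sham 1, 2 and 3, with scaling factors of 0.875, 1.20 and 1.19. Levels are given as rpm, the reads of a miRNA per 1000000 miRNA reads of its library, or as a percent of those reads. The lowest value listed corresponds to between 0.349 and 0.450 rpm, and a 0 therefore means fewer reads than this limit, not absence.

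The sham ARC pool was led by miR-7a-5p, miR-9a-5p and miR-99a-5p, which stood at ranks 1, 2 and 3 in every library. miR-7a-5p, known from hypothalamic neurons and pancreatic islets, took 24.4% of the reads in sham 1, 16.8% in sham 2 and 19.1% in sham 3, a mean of 20.1% ± 3.93 (SD, n = 3). The exact 95% binomial interval in sham 1 was 24.42% to 24.47%, so counting error, which is all that the interval covers, is far smaller than the spread between libraries. miR-9a-5p, a regulator of neural progenitors and neurons, took 10.9%, 12.8% and 11.1%, a mean of 11.6% ± 1.07 (SD, n = 3). The lead of miR-7a-5p over miR-9a-5p was thus 2.25-fold in sham 1, 1.31-fold in sham 2 and 1.71-fold in sham 3, and the 2 miRNAs did not overlap.

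Below them came 5 miRNAs with between 4% and 6% of the reads. miR-99a-5p held 5.49%, 6.35% and 6.09%, and miR-127-3p, from the imprinted Dlk1-Dio3 region, held 4.53%, 5.65% and 5.59%. let-7f-5p held 4.85%, 4.80% and 5.13%, and miR-125b-5p, a homolog of the worm miRNA lin-4, held 4.71%, 4.50% and 3.88%. miR-128-3p, a neuronal miRNA that damps excitability, held 3.06%, 4.19% and 5.07%. miR-99a-5p was above miR-127-3p and let-7f-5p above miR-125b-5p in all 3 libraries. The order of the other neighbours was not kept, since miR-127-3p was above let-7f-5p in 2 of 3 libraries and miR-125b-5p above miR-128-3p in 2 of 3.

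The remaining miRNAs of the leading 30 ranged from 2.49% for let-7g-5p to 0.476% for let-7e-5p. let-7g-5p, let-7c-5p and let-7i-5p had means of 2.49%, 2.48% and 2.48%, and their order differed between libraries. They were followed by miR-26a-5p (2.17% ± 0.175), let-7a-5p (2.08% ± 0.0489), miR-7b (2.02% ± 0.279) and miR-30c-5p (1.93% ± 0.210), each with SD and n = 3. miR-124-3p, often described as the most abundant neuronal miRNA of the brain, stood at rank 27 here with 0.459%, 0.630% and 0.592%. This rank is by reads, which need not be proportional to molecules. miR-204-5p, an epithelial miRNA that is high in choroid plexus, was at rank 29, and at 0.587% in sham 1 against 0.489% and 0.442% in the others. Of the 29 neighbouring pairs among the 30, 12 kept their order in all 3 libraries. All 30 were also among the 30 most abundant of sham 1 and of sham 2, and 29 of them were in sham 3.

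**Figure D1:**
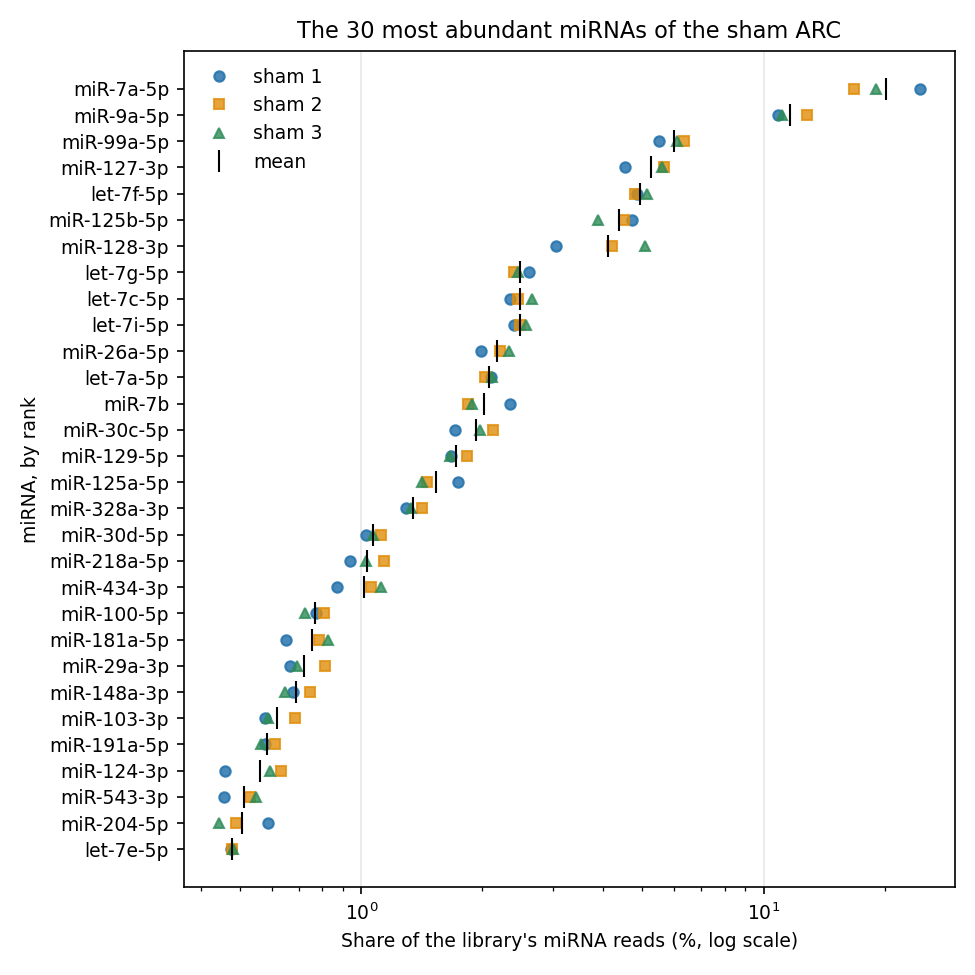
Share of the library's miRNA reads (percent, log axis) of the 30 most abundant miRNAs, with a symbol for each sham library and a bar for the mean. miR-7a-5p lies right of miR-9a-5p in every library, while 12 of the 29 neighbouring pairs kept their order in all 3 libraries.

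The pool was uneven. The 6 most abundant miRNAs held 50% of the reads (5 in sham 1 and 6 in sham 2 and sham 3), 42 held 90% and 175 held 99%. The leading 10 held 63.8% ± 1.43 and the leading 30 held 85.9% ± 0.836 (SD, n = 3). The fold between rank 1 and rank 30 was 51.7, 35.2 and 39.9 in sham 1, 2 and 3.

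By level, 20 miRNAs had a mean of at least 10000 rpm and held 79.7% of the reads. A further 51 miRNAs between 1000 and 10000 rpm held 15.0%, and 134 between 100 and 1000 held 4.58%. The other 357 miRNAs held the small rest. Of these, 144 lay between 10 and 100 rpm with 0.581% of the reads, 135 between 1 and 10 with 0.0536%, and 78 below 1 with 0.00336%. Most names in the list therefore carried few of the reads, although 489 to 503 of the 562 had at least 10 reads in a library.

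**Figure D2:**
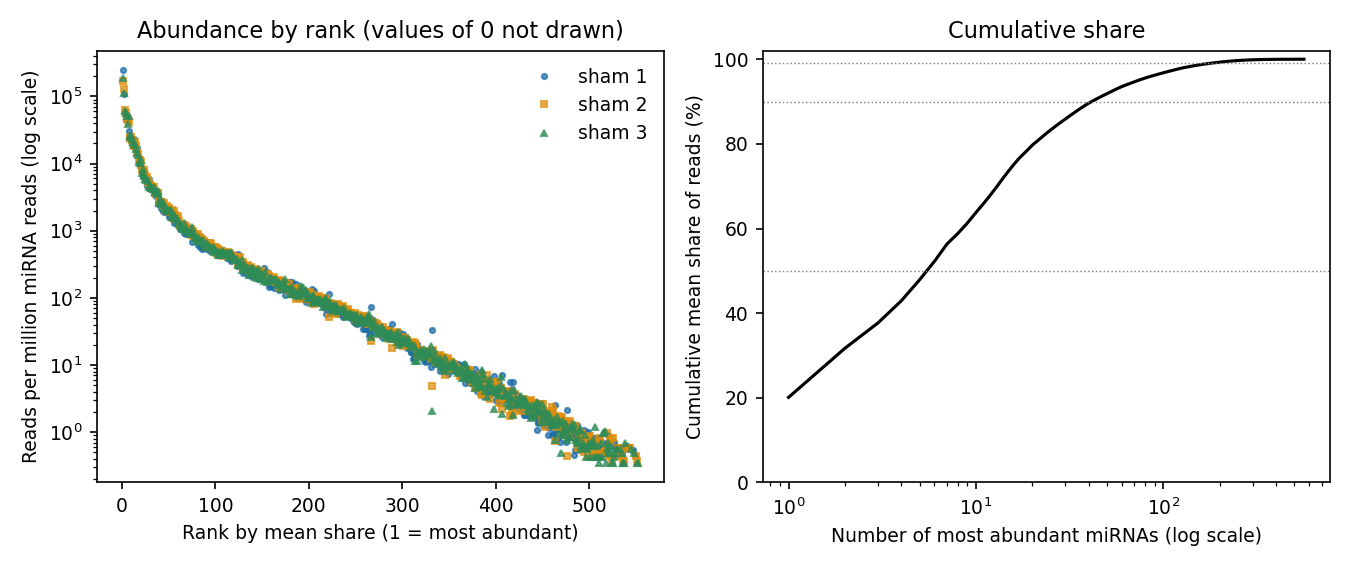
Left, rpm (log axis) by abundance rank, with a symbol for each sham library and values of 0 not drawn. Right, cumulative mean share of the reads (percent) against the number of most abundant miRNAs (log axis), with dotted lines at 50%, 90% and 99%, which the curve crosses at 6, 42 and 175 miRNAs.

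At the lower end, 514 miRNAs were above 0 in all 3 libraries and 9 were listed at 0 in all 3. These 9 were miR-18a-5p, a member of the miR-17-92 group of dividing cells, miR-196a-5p and miR-196b-5p, which come from the Hox clusters of the posterior body, and miR-101a-5p, miR-203b-3p, miR-216b-3p, miR-500-5p, miR-871-3p and miR-1193-5p. The hairpins of miR-101a-5p, miR-216b-3p, miR-500-5p, miR-1193-5p and miR-18a-5p had listed values above 0 on the opposite arm only. The opposite arm of miR-101a-5p, miR-101a-3p, had a mean of 103 rpm, and miR-1193-3p had 39.1. Between 24 and 29 miRNAs were listed at 0 in a library.

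By seed, 511 of the 562 miRNAs had a RefSeq mature sequence, and these held 90.2% ± 0.681 of the reads (SD, n = 3) and fell into 424 seeds. The other 51, among them miR-99a-5p, miR-328a-3p, miR-30d-5p and miR-124-3p, entered no family, so each family share is that of its members with a sequence. Of the 424 seeds, 367 belonged to 1 listed miRNA and 57 to several. There were 13 families with at least 1% of the reads, and their 32 members together held 75.3% ± 1.56 of all reads. In 6 of the 13, miR-9a-5p, miR-127-3p, miR-128-3p, miR-129-5p, miR-218a-5p and miR-434-3p, a lone miRNA made up the family.

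The miR-7 family, with the seed shown above for miR-7a-5p and miR-7b, was the largest, with 26.8% of the reads in sham 1, 18.6% in sham 2 and 20.95% in sham 3. The let-7 family, which holds back growth genes in differentiated cells, came next with 15.5%, 15.4% and 16.2%. The miR-7 family was above the let-7 family in every library, with means of 22.1% ± 4.20 and 15.7% ± 0.429 (SD, n = 3). The miR-125 family held 6.48%, 5.98% and 5.34% and was lowest in sham 3.

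Within families, reads were spread unequally, more so in the miR-7 than in the let-7 family. miR-7a-5p made up 90.8% ± 0.611 of the miR-7 family (SD, n = 3), so miR-7b, although itself at rank 13, was a minor member. In let-7, let-7f-5p made up 31.4% ± 0.286 of the family, let-7g-5p 15.9% ± 0.834, let-7c-5p 15.8% ± 0.636, let-7i-5p 15.8% ± 0.324 and let-7a-5p 13.3% ± 0.242. The remaining members were small, with let-7e-5p at 3.04%, let-7d-5p at 2.34%, let-7b-5p at 1.72% and miR-98-5p at 0.735% of the family. These proportions moved little between libraries, and the share of let-7f-5p in the family stayed between 31.2% and 31.7%.

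Among members with a sequence, a single member also led each of the next families. miR-125b-5p was 73.6% ± 1.37 of the miR-125 family and miR-125a-5p 25.9% ± 1.34, with miR-351-5p at 0.541%. miR-26a-5p was 95.2% ± 0.703 of the miR-26 family and miR-30c-5p 87.3% ± 0.676 of the 4 miR-30 members with a sequence. These 4 do not include miR-30d-5p, which had 1.07% of all reads, so the share of miR-30c-5p in the whole family is lower. miR-100-5p was 64.3% ± 1.33 and miR-99b-5p 35.7% ± 1.33 of the 2 members of their family with a sequence. That sum does not hold miR-99a-5p, which had 5.98% of all reads against 0.767% for miR-100-5p. The leader and rank of this family therefore hold only for members with a sequence. Of the miR-181 family, which acts in neurons and lymphocytes, miR-181a-5p was 69.3% ± 0.610, miR-181b-5p 21.5% ± 0.832, miR-181d-5p 8.78% ± 0.818 and miR-181c-5p 0.450% ± 0.030 (SD, n = 3 in each).

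**Figure D3:**
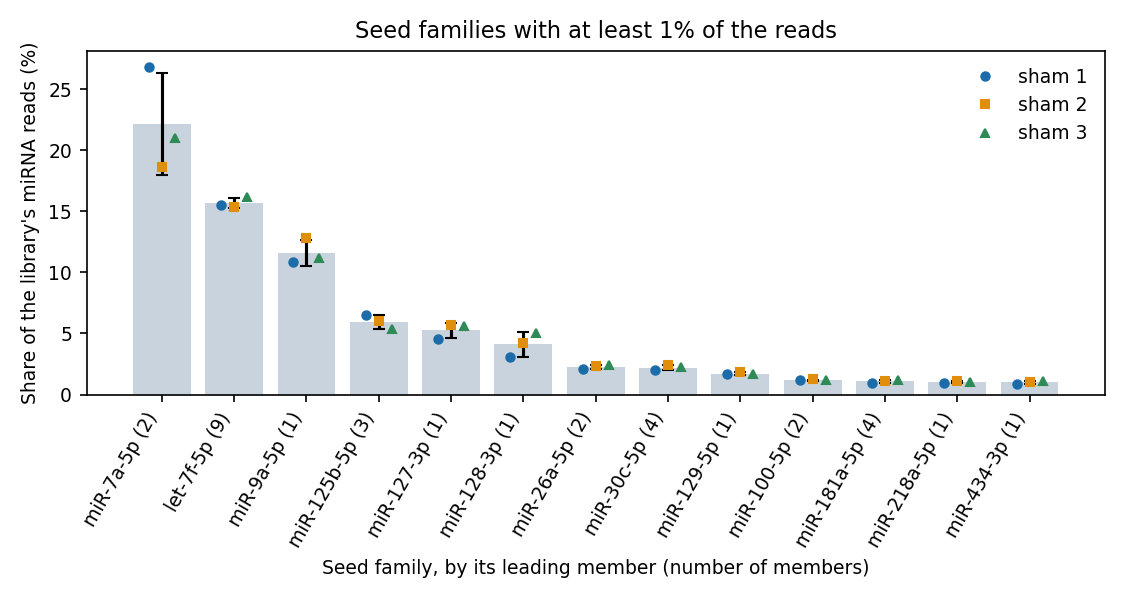
Share of the library's miRNA reads (percent) of the 13 seed families with at least 1% of the reads. Families are named by their leading member with a sequence, with the number of such members in brackets. Bars are means, error bars are SD (n = 3) and symbols are the sham libraries. miR-99a-5p and miR-30d-5p, which have no sequence here, are in no bar. The miR-7 family runs from 18.6% to 26.8% and the let-7 family from 15.4% to 16.2%.

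In sequence, the abundant miRNAs differed from the listed ones as a whole. A uracil (U) stood at the first base, the base that sits in a pocket of Argonaute, in 37.4% of the 511 miRNAs and these held 86.7% ± 0.857 of the reads of the 511 (SD, n = 3), which leave out the 9.81% of all reads without a sequence. For A the figures were 29.5% of the 511 miRNAs and 8.11% of their reads, for C 22.7% and 4.32%, and for G 10.4% and 0.880%. The share of miRNAs that start with U was 28.4% below 10 rpm (190 miRNAs), 34.8% between 10 and 100 (135 miRNAs), 42.1% between 100 and 1000 (121 miRNAs) and 60% from 1000 upward (65 miRNAs). Of the leading 30, 20 of the 26 with a sequence started with U. This is a description over miRNAs of the same 3 libraries, and related miRNAs share their first base, as the let-7 lines above show. The share of their reads also rests partly on miR-7a-5p, without which it was 82.9%.

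In length, miRNAs of 21 to 23 bases made up 88.5% of the 511 and held 96.9% ± 0.104 of their reads (SD, n = 3). The mean G+C content was 48.9% over the miRNAs and 41.9% ± 0.512 weighted by reads. The median G+C content showed no steady order by level, with 47.8% below 10, 50% between 10 and 100, 45.5% between 100 and 1000 and 47.6% above 1000 rpm.

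Both arms were listed for 195 hairpins, and 194 of them had a mean of at least 10 normalized counts over both arms. The log2 of the 5p over the 3p strand, with 1 normalized count added to each, was compared with 0 by limma in the 3 libraries, two-sided and with Benjamini-Hochberg adjustment. The ratio differed from equal arms at an adjusted p under 0.05 in 180 of 194 hairpins (92.8%). The 5p strand was higher in 88 (45.4%) and the 3p strand in 92 (47.4%). The same arm was higher in all 3 libraries in 188 hairpins. A ratio compares reads, which need not be proportional to molecules.

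By reads rather than hairpins, 5p strands held 70.6% ± 1.22 of the reads of these pairs (SD, n = 3). The rarer strand of each pair held only 3.32% ± 0.0339 of them. The median absolute log2 ratio was 3.83, 106 hairpins had one strand over 10 times its partner, and 24 had an absolute log2 ratio under 1. The median was 1.72 below 10 rpm (29 hairpins), 3.26 between 10 and 100 (38), 3.65 between 100 and 1000 (77) and 6.17 from 1000 upward (50). The ratio of a hairpin is bounded by the reads of its higher strand, since a rarer strand under 5 reads is listed as 0 and 1 is added. The part of this bound in the medians by level was not tested. In 23 hairpins a strand was listed at 0 in at least 1 library, and the ratio of such a hairpin depends on the added count.

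**Figure D4:**
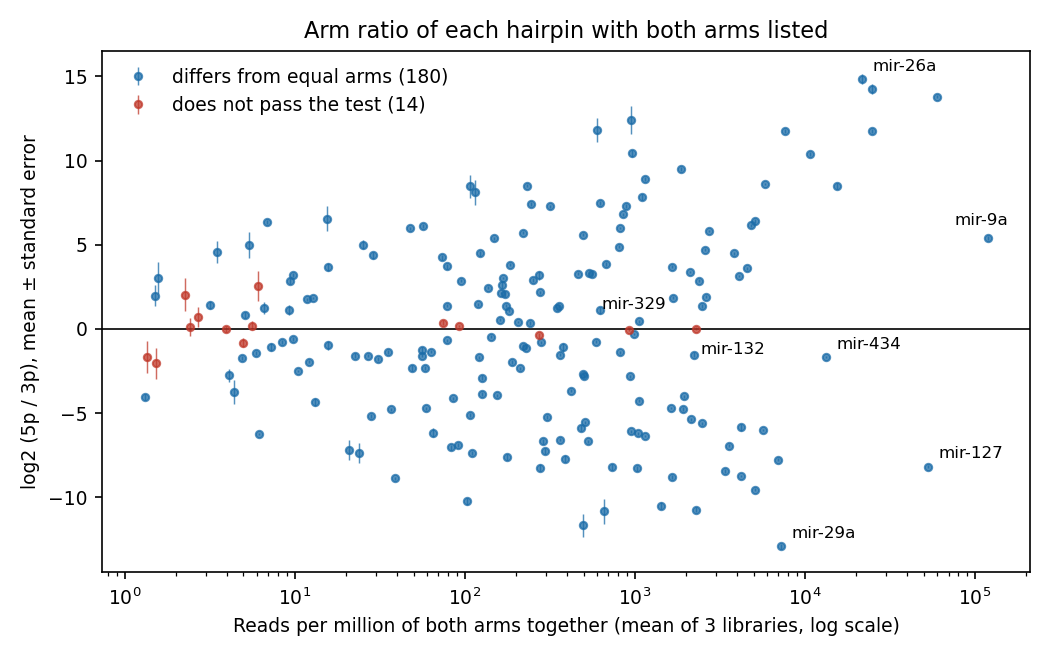
Mean log2 of the 5p over the 3p strand with its standard error, for each of 194 hairpins, against rpm of both strands together (log axis); blue hairpins differ from equal arms and red ones do not pass the test. At the right the 5p-led mir-9a and mir-26a and the 3p-led mir-127 and mir-29a stand far from 0, and mir-132 lies on the line.

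Of the 195 hairpins with both strands listed under the same name, the 10 with most reads all passed the test, 8 of them led by 5p and 2 by 3p. This leaves out abundant miRNAs whose partner strand is listed under another name or not at all, among them let-7f-5p, miR-125b-5p, miR-128-3p, let-7c-5p, let-7a-5p, miR-7b, miR-30c-5p and miR-129-5p. It also leaves out miR-7a-5p, whose partner strands are listed by locus, as miR-7a-1-3p with 13.3 and miR-7a-2-3p with 94.6 rpm. In mir-9a, the 5p strand had 1380708, 1452412 and 1343562 normalized counts and the 3p strand 36846, 30057 and 31437. The log2 ratio was 5.41 (SE 0.11, adjusted p = 1.9e-05 by limma), so miR-9a-3p was only 2.30% of the pair and yet ranked 40 among all miRNAs. In mir-127 the order was the opposite, with 1977, 2224 and 2351 normalized counts of 5p and 575011, 639942 and 673889 of 3p. Its log2 ratio was -8.18, -8.17 and -8.16 in the 3 libraries, one of the smallest spreads of any hairpin.

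Of the other 8, mir-99a, let-7g, let-7i, mir-26a, mir-125a, mir-30d and mir-100 were led by 5p, with log2 ratios from 8.48 for mir-125a to 14.84 for mir-26a. The 3p strand of mir-26a had 12.6, 4.99 and 7.59 normalized counts against 251867, 250712 and 280475 of 5p, so the value of its ratio leans on a few reads. mir-434, from the imprinted Dlk1-Dio3 region, had the ratio nearest to equal strands of the 10, with 33356, 39644 and 42985 normalized counts of 5p and 110763, 119624 and 135217 of 3p. Its log2 ratio was -1.66 (SE 0.074, adjusted p = 0.00015 by limma).

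Among the 50 hairpins with at least 1000 rpm, 49 were called, and mir-132 and mir-329 had an absolute log2 ratio under 1. mir-132, an activity-regulated neuronal hairpin, had 14275, 14110 and 13214 normalized counts of 5p and 15176, 12984 and 12780 of 3p. Its 3p strand was higher in sham 1 and its 5p strand in sham 2 and sham 3, and the log2 ratio of 0.027 did not pass the test (SE 0.082, adjusted p = 0.773 by limma). mir-329 had 7455, 7301 and 7148 normalized counts of 5p and 4962, 5388 and 5708 of 3p, a log2 ratio of 0.45 that passed (SE 0.089, adjusted p = 0.0128 by limma). Without sham 2 the ratio of mir-329 was 0.46 and no longer passed.

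A 5p-led, a 3p-led and the 2 balanced hairpins are shown with both mature strands in capitals, the 5p strand first. The sequences and places are those of RefSeq in GRCr8.
let-7g, chr8:115701020-115701107, plus strand: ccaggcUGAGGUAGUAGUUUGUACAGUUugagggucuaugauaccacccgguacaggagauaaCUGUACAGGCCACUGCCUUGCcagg
mir-434, chr6:134330402-134330482, plus strand: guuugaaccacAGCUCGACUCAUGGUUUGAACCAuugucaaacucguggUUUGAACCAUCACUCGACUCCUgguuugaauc
mir-132, chr10:60522033-60522133, plus strand: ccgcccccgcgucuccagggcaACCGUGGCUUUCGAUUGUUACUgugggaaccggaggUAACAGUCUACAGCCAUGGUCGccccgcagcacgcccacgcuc
mir-329, chr6:134547913-134548009, plus strand: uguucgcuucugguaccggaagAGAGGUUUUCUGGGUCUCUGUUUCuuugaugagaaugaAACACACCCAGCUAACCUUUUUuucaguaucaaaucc
The first capital letter of each strand is its first base. In let-7g and mir-434 the leading strand starts with U and its partner does not, in mir-132 the 3p strand starts with U and the 5p strand with A at nearly equal reads, and in mir-329 both start with A.

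Over the 155 called hairpins with a sequence for both strands, the higher strand started with U in 72 (46.5%) and the lower strand in 32 (20.6%). U stood at the start of only the higher strand in 57 hairpins, of only the lower strand in 17, of both in 15 and of neither in 66. The higher strand started with A in 44, with C in 25 and with G in 14 hairpins, against 57, 45 and 21 for the lower strand. These counts describe the listed hairpins, and many of the 155 are related in sequence.

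The ratio between strands was about as steady between libraries as the strands themselves. In the 87 hairpins with both strands at 10 rpm or more, the median SD of the log2 ratio was 0.12, and the median SD of the log2 level of a strand was also 0.12. An SD over 0.5 was found in 2 of the 87, mir-340 and mir-374, which were named after their values were seen. The log2 ratio of mir-340 was -0.40 in sham 1 against -1.54 and -1.30 in sham 2 and sham 3, and that of mir-374 was 2.67, 3.86 and 3.03.

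The marker lists were read as a description of the labelled tissue. They were chosen with earlier results of these data known, so they do not check the label. All 13 listed neuronal miRNAs had at least 10 reads in every library and together held 16.8%, 20.2% and 19.1% of the reads. They were led by miR-9a-5p and miR-128-3p, and the lowest, miR-137-3p, had 46.1, 36.5 and 36.7 rpm. The neuroendocrine list of miR-7a-5p, miR-7b and miR-375-3p held 26.8%, 18.7% and 20.98%, of which miR-375-3p, the miRNA of pituitary and islet cells, had only 284, 257 and 291 rpm. In such bulk tissue, fewer cells of a type and less RNA per cell cannot be told apart.

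Summed by list, markers of glia and vessels were lower than the neuronal and neuroendocrine lists, and no astrocyte list was used. The latter 2 sums rest mostly on single miRNAs. miR-9a-5p had a mean of 116131 of the 186909 rpm of the neuronal list, and miR-7a-5p 201047 of the 221564 of the neuroendocrine list. Single members overlapped, since the endothelial miR-126a-3p, with a mean of 4146 rpm, lay below the neuronal miR-124-3p (5601) and above miR-132-3p (1134). The 4 oligodendrocyte miRNAs summed to 1077, 1325 and 1652 rpm, with miR-219a-2-3p at 682, 856 and 1117 and miR-338-5p at 356, 424 and 489. miR-219a-5p, which is also described as an oligodendrocyte marker, was near the floor with 7, 0 and 14 reads. The endothelial pair miR-126a-3p and miR-126a-5p summed to 3577, 4530 and 4547 rpm. The 7 miRNAs of smooth muscle and fibroblasts summed to 3295, 4373 and 4824, most of it miR-143-3p with 2533, 3610 and 3962. The 7 miRNAs of microglia and immune cells summed to 1569, 1665 and 1871. The first 3 of these 4 lists had their lowest sum in sham 1 both in rpm and in normalized counts. The sum of the microglia and immune list was lowest in sham 1 in rpm but in sham 2 in normalized counts, at 19934, 18847 and 22578. Single members differed, and miR-126a-5p, for instance, was highest in sham 1 with 82.4, 56.9 and 77.8 rpm.

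The 8 miRNAs of choroid plexus and ependyma had sums of 7533, 6527 and 5910 rpm, highest in sham 1, which were carried by miR-204-5p. Only 4 of the 8 were highest in sham 1, and miR-1298, for instance, had 302, 400 and 309 rpm. The 9 miRNAs of epithelium and pituitary also had their highest sum in sham 1, with 1542, 1186 and 1094 rpm, and 8 of the 9 were highest there. Within that list miR-203a-3p, the miRNA on which the study centers, was low and steady at 12.7, 14.8 and 14.2 rpm, at rank 327. By in situ hybridization the paper located miR-203a-3p mainly in ARC neurons, so its place in this list does not name its source cells. The part of cell makeup in these sums was not tested.

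The erythrocyte and striated muscle lists had lower sums than the lists above, with means of 273 and 108 rpm. The erythrocyte miR-486 nevertheless stood at rank 139 of the 562. Of the erythrocyte list, miR-486 had 280, 263 and 223 rpm, miR-451-5p had 18.4, 21.4 and 11.4, miR-144-5p had 10, 0 and 7 reads, and miR-144-3p was not among the 562. The striated muscle list summed to 135, 90.9 and 99.4 rpm, most of it miR-499-5p, and its miR-1-3p had a mean of 2.02. miR-122-5p of liver had a mean of 8.16 rpm. The pancreas list, miR-216a-5p and miR-217-5p, summed to a mean of 16.0.

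Hairpins that lie side by side on the chromosome, and that are known or thought to be cut from shared transcripts, gave very different levels. The marker lists held 11 pairs of hairpins within 10000 bases of each other on the same strand in RefSeq (GRCr8). miR-200c-3p had 219 ± 49.6 rpm and miR-141-3p, 346 bases away on chromosome 4, had 3.70 ± 2.88 (SD, n = 3), a fold of 39.1, 92.9 and 94.4 in sham 1, 2 and 3. miR-143-3p was 12.3, 17.9 and 14.6 times miR-145-5p. On the other hand miR-182 and miR-183-5p were almost level, with folds of 1.11, 1.13 and 1.12, while miR-96-5p, 97 bases from the miR-183 hairpin, was 13.3, 13.2 and 17.0 times lower than miR-183-5p. miR-34c-5p was 6.32, 6.16 and 4.87 times miR-34b-5p. In each pair named here the same miRNA was higher in all 3 libraries.

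The imprinted Dlk1-Dio3 region, known for its many brain miRNAs, which are expressed from the maternal chromosome, was the broadest group by number. Its anti-Rtl1 and Meg3 part, with 20 listed miRNAs, held 6.39%, 7.91% and 7.89% of the reads, a mean of 7.39% ± 0.875 (SD, n = 3). miR-127-3p alone made up most of this, and miR-434-3p followed with 0.872%, 1.06% and 1.12%. The Mirg part, with 59 listed miRNAs, held 2.61%, 3.09% and 3.02%, a mean of 2.91% ± 0.256. Both parts were lowest in sham 1.

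Within the Mirg part the levels were wide. It was led by miR-543-3p with 4557, 5289 and 5486 rpm, miR-379-5p with 3302, 3815 and 3898, and miR-323-3p with 2117, 2707 and 2503. 9 of its 59 miRNAs had a mean of at least 1000 rpm, the median was 102 and 5 had less than 1. miR-376a-3p had a mean of 0.73 and miR-376c-3p of 3.28. All 59 of the Mirg part, and the 18 of the other part that RefSeq places, lie on chromosome 6 in GRCr8. At other imprinted loci, 7 listed miRNAs held 0.0665% of the reads, led by miR-298-5p with 469, 515 and 482 rpm.

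The libraries differed by more than counting error. Over the 205 miRNAs with at least 100 rpm, the coefficient of variation (CV) of the normalized counts between the 3 libraries had a median of 7.79% and ran from 0.373% to 34.2%. It was over 10% in 75 and over 20% in 16. The ratio of a miRNA's CV to the CV that counting of its reads alone would give had a median of 6.49. By level, the median CV was 19.8% between 1 and 10 rpm against 15.9% from counting, 9.91% against 4.92% between 10 and 100, and 8.14% against 1.76% between 100 and 1000. It then leveled off, with 7.09% between 1000 and 10000 and 7.17% above, where counting gives 0.612% and 0.184%.

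**Figure D5:**
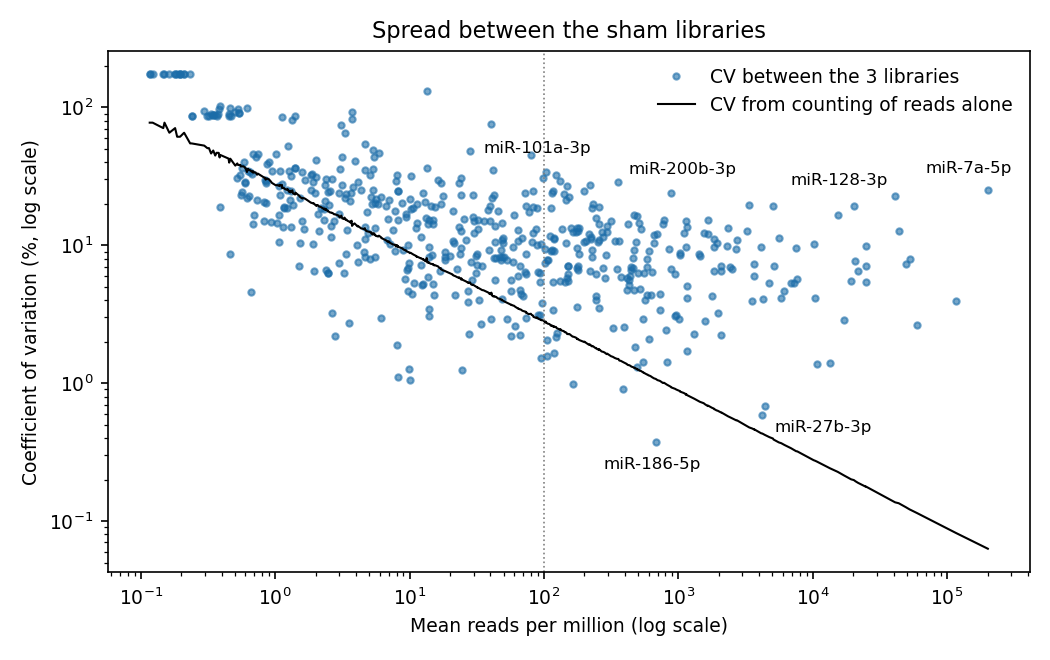
Coefficient of variation between the 3 sham libraries (percent, log axis) against mean rpm (log axis), a point for each miRNA; the line is the variation from counting reads alone and the dotted line marks 100 rpm. miR-7a-5p, the most abundant, varies by 25.2% and miR-186-5p by 0.373%.

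Sham 2 and sham 3 were the most alike, with a median absolute log2 difference of 0.10 over the 205 miRNAs, against 0.15 between sham 1 and sham 2 and 0.16 between sham 1 and sham 3. Pearson's r of the log2 values across these 205 miRNAs was 0.998, 0.995 and 0.994 in the same order; miRNAs are not independent replicates and r is given as a description. The number of miRNAs over 1.5-fold apart was 2, 7 and 9. Of the 205, 89 were highest in sham 1, 43 in sham 2 and 73 in sham 3. No pair of libraries was within counting error, so none was taken for another listed again, which does not show that they came from separate rats.

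The 10 most variable of the 205 included the most abundant miRNA. miR-7a-5p had 3105403, 1900553 and 2301274 normalized counts, a CV of 25.2%, and was 1.63 times higher in sham 1 than in sham 2. The largest CV was that of miR-101a-3p, with 1742, 979 and 1028 normalized counts (34.2%). miR-101b-3p of the same seed family was highest in the same library at 2153, 1297 and 1373 (29.5%). The sequences of miR-101a-3p and miR-101b-3p are nearly the same, so, as in let-7, the split of reads between them is uncertain. miR-340-5p had 2027, 1106 and 1340 (32.1%). miR-200b-3p with 5770, 3558 and 3677 (28.7%) and miR-200c-3p with 3482, 2316 and 2148 (27.4%), both epithelial miRNAs, were highest in sham 1 as well, and so was miR-369-3p (24.8%). miR-200b-3p and miR-200c-3p are members of the epithelium and pituitary list. The sum of that list, highest in sham 1 as given above, is therefore not independent of their values. The part of cell makeup in these values was not tested.

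Of the 10, these 7 were highest in sham 1 and the other 3 in sham 3. miR-378b had 1393, 1635 and 2323 normalized counts (27.0%), miR-450b-5p had 1312, 1111 and 1790 (24.9%), and the oligodendrocyte miRNA miR-219a-2-3p had 8668, 9690 and 13473 (23.9%). Of the 16 miRNAs with a CV over 20%, 11 were highest in sham 1, 5 in sham 3 and none in sham 2. Without sham 1, 5 miRNAs had a CV over 20% and the median CV was 4.85%.

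The steadiest of the 205 were miR-186-5p, miR-27b-3p, miR-24-3p, miR-488-3p and miR-3547. miR-186-5p had 8121, 8181 and 8142 normalized counts, a CV of 0.373%, which is less than the 1.07% that counting gives on average. miR-27b-3p and miR-24-3p had CVs of 0.583% and 0.688%, while miR-23b-3p, whose hairpin lies beside that of miR-27b-3p, had 8.55%. No test was made of a small spread.

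Below 100 rpm, miR-335 and miR-3473 stood apart and were named after their values were seen. miR-335, from an intron of the imprinted gene Mest, had 816 reads in sham 1 but 306 and 370 in sham 2 and sham 3, which is 73.4, 22.5 and 25.8 rpm. miR-3473 had 370, 66 and 30 reads, a CV of 132%. Both were highest in sham 1. So was miR-205, an epithelial miRNA outside the marker lists and also named after its values were seen, with 115, 52.4 and 72.6 rpm. In the epithelium and pituitary list, 8 miRNAs were highest in sham 1, while miR-203a-3p was lowest there.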

How the data were processed

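RNA of the ARC was sequenced by the authors in 3 sham libraries. Per the labels, RNA was extracted with Trizol and libraries were made with a TruSeq RNA kit, and how small RNAs were selected is not stated there. The submitters' processing notes name cutadapt 1.14, Bowtie 1.1.1 and the build rn6. The counting program, the miRNA annotation and the normalization are not given in the sources used here. The values the authors deposited are signal values, that is normalized counts. Columns with no sample numbered 0.

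Reads were taken as the deposited value over the step of its library (tolerance 0.01 step), and shares as a percent of the library's sum. Depth was 11115049 to 14313839 reads. Because the smallest value is worth 5 steps, the values were not used as counts in a count model, and the dispersion test and the count test of strands chosen at first were not run. The strand ratio was tested with limma 3.58.1 (R 4.3.3), intercept only, on log2 ratios with 1 added, for hairpins with a mean of at least 10 normalized counts, two-sided, Benjamini-Hochberg, threshold 0.05. The test was tested on simulated data. Other steps used Python 3.11.15, pandas 2.3.3 and numpy 2.4.6.

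Mature and hairpin sequences were matched by name to RefSeq (GRCr8) for 511 of 562 miRNAs. No coordinates of rn6 were used. 3 listed miRNAs repeat the values of another (let-7a-1-3p, miR-3084b-5p and miR-466b-2-3p).

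miRNAs were named by a rule: the 30 most abundant, families of at least 1%, the 10 hairpins with most reads, hairpins of at least 1000 rpm with an absolute log2 ratio under 1, the 10 most and 5 least variable of those with at least 100 rpm, the leading members of marker and imprinted lists, and those at 0 in all libraries. Others were chosen after their values were seen. The members, lists and rule were chosen with earlier results of these data known. Alternatives were other scalings, filters, seed lengths and added counts, and leaving out each library.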

Additional observations from a re-analysis of the deposited data

How the results depend on the processing

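No paired analysis was possible because a lone group was described and no groups were compared. Without the most abundant miRNA, miR-7a-5p, the leading 10 held 57.4% of the reads, let-7 19.7%, miR-125 7.45%, miRNAs with a first U 82.9% and those of 21 to 23 bases 96.0% of the reads with a sequence, and the G+C content weighted by reads was 43.9%; these follow from the smaller total. The median CV was 12.2% with no filter and 167 miRNAs then had a CV over 20%, against 40 with a mean of at least 100 normalized counts, which brings in miRNAs with fewer reads. Leaving out each library gave a median CV from 4.85% (without sham 1) to 7.89% and between 5 (without sham 1) and 22 miRNAs with a CV over 20%. The leading 10 then held 63.0% to 64.5%, the miR-7 family 19.8% to 23.9%, the let-7 family 15.4% to 15.8%, and 168 to 177 hairpins were called. Of the 180 calls, 175, 168 and 169 were still made without sham 1, 2 and 3, 176 with 0.1 added and 180 with 5 added, and none changed direction. Leaving out each library moved the log2 ratio of mir-132 between -0.020 (without sham 2) and 0.084, and that of mir-329 was 0.46 without sham 2 and no longer called. Of the recomputed values of the main comparisons, 97 stayed within their spread or within 1.5 times and 11 did not. The count test of strands with edgeR and the dispersion test were not run. Depth limits the 213 miRNAs under 10 rpm, whose rarer values sit near the floor of 5 reads.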
